A study of Mus musculus with 3 samples.

Results

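Ion channels of the potassium, sodium and chloride families were followed in mouse muscle cells in which the DNA-binding factor Tead4 was lowered. The genes were taken by name from the table of read counts: symbols that start with Kcn and a letter, with Scn and a digit, or with Clcn and a digit or k, and that had 10 or more raw reads summed over all libraries. This gave 48 of the 83 genes so named, among 20162 genes in all. They were 31 of 64 Kcn genes, 8 of 10 Scn genes and 9 of 9 Clcn genes. Just inside the limit stood Kcnj15 and Kcnip3 with 10 reads each, and just outside it Kcne4 and Kcnj11 with 9 reads each. Not every product is a channel of the cell surface: Clcn3 to Clcn7 code for proteins of endosomes and lysosomes, and 8 of the 48 genes code for auxiliary subunits.

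The cells were C2C12, myoblasts of mouse origin that join into multinucleated myotubes in low serum. They were grown in medium with 10% fetal calf serum, infected with a lentivirus, selected with puromycin and differentiated for 7 days in 2% horse serum. All 3 populations went through these steps, and they differed in the short hairpin RNA (shRNA) they carried: a control sequence, or 1 of 2 different sequences that target Tead4 (here shRNA A and shRNA B). Each was an infected population sequenced as 1 library of polyadenylated RNA, and nothing in the labels describes repeat cultures. A p-value here thus reflects no more than how the 2 Tead4 shRNA libraries scatter. That scatter mixes any difference between the 2 hairpins with variation that may be technical.

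A muscle fibre fires an action potential when voltage-gated sodium channels open, and potassium and chloride channels hold or restore its resting potential. In mature fibres Scn4a supplies the main sodium channel and Clcn1 the main chloride channel. Inward rectifier potassium channels such as Kcnj2 hyperpolarise myoblasts as they become able to fuse.

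Values below are given in the order control, shRNA A, shRNA B unless a library is named. The libraries held 16412139, 19918954 and 15594305 counted reads, of which Tead4 itself had 1256, 397 and 170. Channel genes took 0.0927%, 0.107% and 0.104% of all reads. Their median was 138 reads over the 3 libraries, against 1119 for all genes with 10 or more reads. Only 9 of the 48 had more than 1000 reads, and these took 87.1% of the channel reads, whereas 22 had fewer than 100. Of 10 markers of myotubes, 6 fell and none rose, with a summed level of 23329 counts per 1000000 scaled reads (CPM) in the control and 13130 and 15845 CPM in the Tead4 shRNA libraries. Of 9 measured markers of dividing and undifferentiated cells, 6 rose and 1 fell, with sums of 114, 220 and 216 CPM. Of 8 smooth muscle markers, 4 rose and none fell (sums of 5585, 7054 and 6811 CPM). The part of these shifts in the channel results was not tested, and in such bulk samples fewer cells of a type and less RNA per cell cannot be told apart. Markers of neurons (5 measured), fibroblasts (5) and heart muscle (5) gave no higher call, and 1 fibroblast marker fell. Glial, endothelial, leukocyte and adipocyte markers summed to at most 3.98 CPM in any library.

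Between the 2 Tead4 shRNA libraries and the control, 2 channel genes rose and 3 fell. The 3 that fell were Scn4a, Clcn3 and Kcnk5. The fitted difference between these groups is given on the log2 scale with its standard error (SE). The test was edgeR's quasi-likelihood test over all genes with Benjamini-Hochberg adjustment and a threshold of 0.05. Of the channel genes, 38 had enough reads in at least 1 library to enter it. The 2 that rose are 5.26% of these, where 5.34% of all 14478 tested genes rose. The 3 that fell are 7.89%, where 4.48% of all tested genes fell, and in both directions together 13.2% of channel genes passed against 9.82% of all genes. With so few genes, these shares are not read as a result about the family as a whole. The median log2 difference was -0.01 over the tested channel genes and 0.02 over all tested genes. Without adjustment, 12 channel genes had a p under 0.05 (31.6%, against 21.7% of all genes).

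A ratio of scaled counts to the control was also taken for either Tead4 shRNA library alone, with a 95% exact counting interval, and both ratios share the control library. With shRNA A, 7 channel genes were at least 2-fold higher (14.6%, background 8.57%) and 8 lower (16.7%, background 5.88%), each with an interval that excludes no change. Kcnj15, 1 of these 7, had all of its 10 reads in the shRNA A library, so the limit on reads admitted it only through the library where it is high. With shRNA B, 6 were higher (12.5%, background 6.29%) and 7 lower (14.6%, background 4.83%). Kcnk2 was among 3 genes at least 2-fold higher with both shRNAs with intervals that exclude no change, 6.25% of the channel genes against a background of 4.43%. Kcnk5, Kcnk13 and Kcnip3 were among 4 genes at least 2-fold lower with both, 8.33% against a background of 3.05%. Kcnip3 reached the limit of 10 reads through 9 reads of the control, and with 30 or more reads required the count of 4 is 3. Both intervals lay above no change for 10 channel genes (20.8%, background 20.3%) and below it for 8 (16.7%, background 20.1%). For 14 of the 48 genes both intervals included no change, where they did for 4159 of all 15500 genes with 10 or more reads. For 0 channel genes did the intervals lie on opposite sides (background 2.95%). When edgeR's likelihood-ratio test took its dispersion from all 3 libraries pooled without regard to group, it called 0 channel genes (2 at an unadjusted p under 0.05), with an adjusted p of 0.885 for each of the 5 genes called above. This dispersion counts any difference between the groups as scatter. The share of all genes called in this setting is not given, so the 0 is not read as a result about the channel genes.

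**Figure D1:**
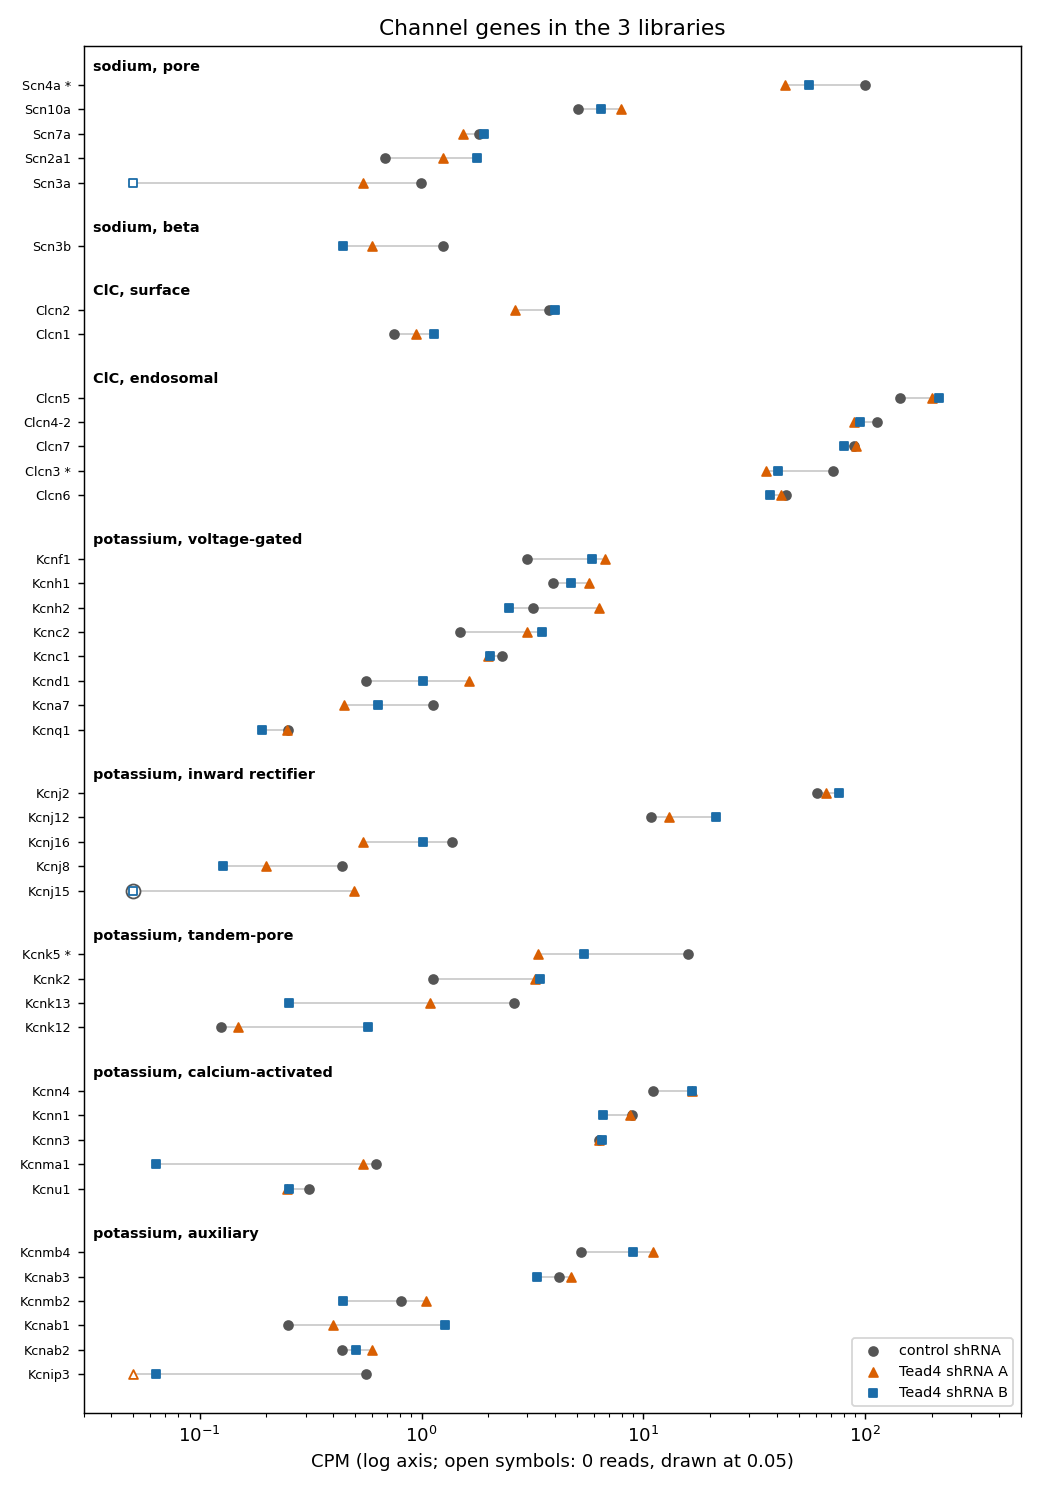
Level of 41 channel genes in the control (circles), shRNA A (triangles) and shRNA B (squares) libraries, in CPM on a log axis, grouped by protein type, with stars at the 3 genes that fell and open symbols at 0.05 for 0 reads. Scn4a lies at 99.5 CPM in the control and at 43.3 and 55.6 CPM with the Tead4 shRNAs, and Clcn3 at 71.8, 35.7 and 40.4 CPM.

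Among the sodium channels, the muscle form fell. Scn4a, which codes for the pore of the sodium channel of mature skeletal muscle, had 1598, 872 and 876 reads, or 99.5, 43.3 and 55.6 CPM. Both shRNA libraries stood well below the control. Its log2 difference was -1.01 (SE 0.22, edgeR quasi-likelihood adjusted p = 0.00399), with log2 ratios of -1.20 (-1.32 to -1.08) with shRNA A and -0.84 (-0.96 to -0.72) with shRNA B. Per kilobase of exon its level was 15.1, 6.57 and 8.43 CPM per kb, which put it at rank 5 of the 48 channel genes in the control and at ranks 11 and 7 with shRNAs A and B.

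Several sodium channel genes were rare and did not pass the test. Scn3b, which codes for an accessory subunit, had 20, 12 and 7 reads and a log2 difference of -1.24 (SE 0.87). Scn10a, known from sensory neurons, had 81, 159 and 101 reads (log2 difference 0.51, SE 0.37). Scn2a1, a brain sodium channel, had 11, 25 and 28 reads. Scn7a, an atypical member that responds to sodium concentration, had 29, 31 and 30 reads, a log2 difference of -0.07 (SE 0.62). Scn3a, also known from brain, had 16, 11 and 0 reads. Against a floor of 3 counts per library it was at least 5.23-fold lower with shRNA B than in the control, while its interval with shRNA A included no change (-2.12 to 0.33 on the log2 scale). Floors and intervals cover counting error only.

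Among the chloride family, Clcn3 fell and the muscle surface channel was barely detected. The 5 genes for endosomal and lysosomal members gave 98.9%, 99.2% and 98.8% of the Clcn reads. Clcn3, an endosomal chloride-proton exchanger, had 1153, 719 and 636 reads, or 71.8, 35.7 and 40.4 CPM. The levels with both shRNAs were close to each other and well under the control. The log2 difference was -0.92 (SE 0.22, adjusted p = 0.00801), with log2 ratios of -1.01 (-1.14 to -0.87) and -0.83 (-0.97 to -0.69).

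Its relatives in endosomes and lysosomes did not pass the test. Clcn5, another endosomal exchanger, had 2295, 4004 and 3385 reads and lay above the control with both shRNAs (143, 199 and 215 CPM). Its counting intervals excluded no change (0.40 to 0.55 and 0.51 to 0.66 on the log2 scale), but at a log2 difference of 0.53 (SE 0.23) the adjusted p was 0.177. Clcn4-2, the mouse Clcn4 gene and also an exchanger of this kind, had 1814, 1791 and 1488 reads (113, 89.0 and 94.4 CPM; log2 difference -0.30, SE 0.22). Clcn6, of late endosomes, had 43.7, 41.7 and 37.3 CPM. Clcn7, which works in lysosomes with its partner Ostm1, had 88.9, 90.9 and 80.2 CPM and a log2 difference of -0.05 (SE 0.22). Ostm1 was not called either (-0.37, SE 0.23).

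Clcn1, the main chloride channel of the mature fibre membrane, had 12, 19 and 18 reads. At 0.747, 0.944 and 1.14 CPM, no difference was detectable at this depth: both counting intervals included no change (-0.78 to 1.51 and -0.52 to 1.80). Clcn2, a more widely expressed surface channel, had 60, 53 and 63 reads (log2 difference -0.18, SE 0.46).

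**Figure D2:**
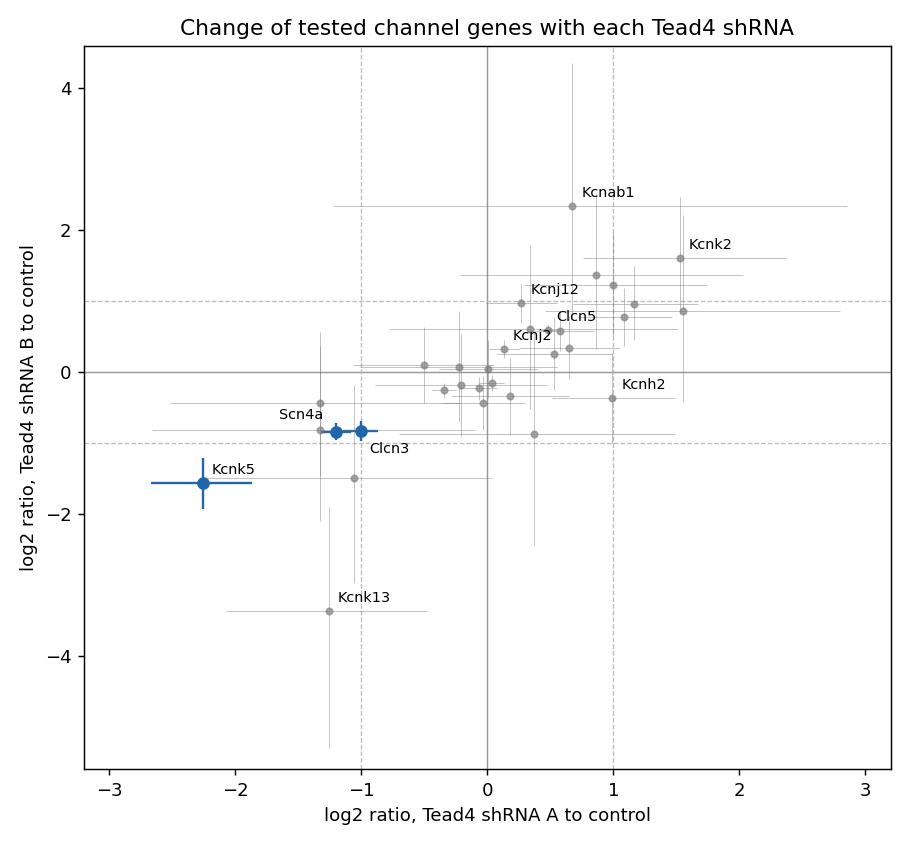
Log2 ratio to the control library with shRNA A (horizontal) and with shRNA B (vertical) for 32 tested channel genes, with 95% exact counting intervals, blue for genes that fell in the test, and dashed lines at 2-fold (Scn3a, with 0 reads for shRNA B, is left out). Both axes share the control library, which by itself can place points along the diagonal: Kcnk5 lies at the lower left and Scn4a and Clcn3 near -1 on both axes.

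The tandem-pore potassium channels, which carry background leak currents, were few but differed among themselves. Kcnk5, an acid-sensitive member, had 256, 67 and 85 reads, or 15.9, 3.33 and 5.39 CPM. It fell by 1.88 on the log2 scale (SE 0.34, edgeR adjusted p = 7.56e-04), with log2 ratios of -2.26 (-2.67 to -1.87) and -1.56 (-1.93 to -1.20). This was the lowest adjusted p of any channel gene. Kcnk2, a member opened by membrane stretch, went the other way with 18, 65 and 54 reads (1.12, 3.23 and 3.43 CPM). Its log2 ratios were 1.53 (0.76 to 2.37) and 1.61 (0.82 to 2.47), but at a log2 difference of 1.56 (SE 0.57) it did not pass the test (adjusted p = 0.0882). With no filter on low counts it was called. Exons of Kcnk2 overlap the antisense gene A430027H14Rik over 14.4% of their length, and this library kit does not mark strand, so its reads are uncertain to that extent.

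Kcnk13, a halothane-inhibited member, had 42, 22 and 4 reads and was lower with both shRNAs (log2 ratios of -1.26, -2.07 to -0.48, and -3.37, -5.31 to -1.90). It was not called at a log2 difference of -1.90 (SE 0.75, adjusted p = 0.123), and was called with no filter on low counts. Its close relative Kcnk12 had 2, 3 and 9 reads and was not tested. As a result of these shifts, Kcnk5 gave 80.5% of tandem-pore reads in the control (95% exact interval 75.7 to 84.7), against 42.7% (34.8 to 50.8) for shRNA A and 55.9% (47.7 to 64.0) for shRNA B. The share of Kcnk2 was 5.66% (3.39 to 8.80), 41.4% (33.6 to 49.5) and 35.5% (27.9 to 43.7). For both genes the control interval lay apart from those of both shRNA libraries.

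**Figure D3:**
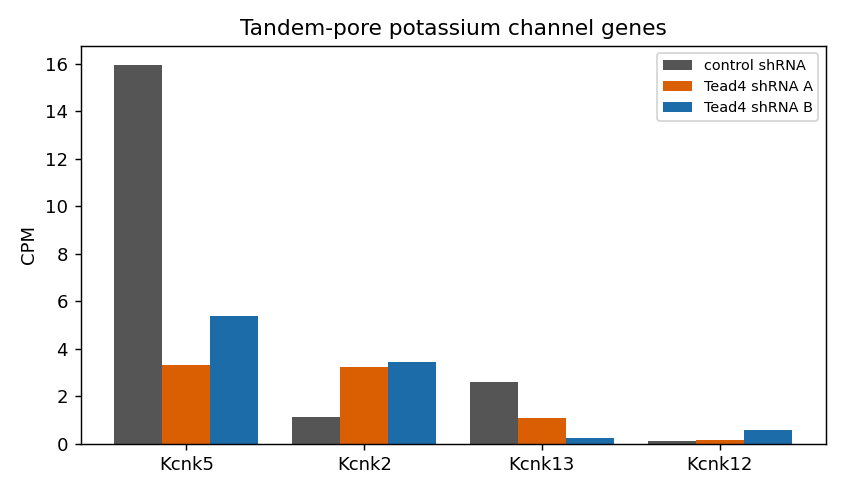
Level of the 4 tandem-pore potassium channel genes with 10 or more reads, in CPM, 1 library per bar. Kcnk5 falls from 15.9 CPM in the control to 3.33 and 5.39 CPM, while Kcnk2 stands at 1.12 CPM in the control and at 3.23 and 3.43 CPM with shRNAs A and B.

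Only 3 inward rectifier genes were tested, and edgeR called 0 of them (1 at an unadjusted p under 0.05). Of all tested genes 9.82% were called, and 21.7% had an unadjusted p under 0.05. With so few genes, the 0 is not read as a result about this type. Kcnj2, which supplies the main inward rectifier of muscle, had 974, 1335 and 1200 reads, or 60.7, 66.4 and 76.2 CPM. It lay slightly above the control with both shRNAs, with log2 ratios of 0.13 (0.01 to 0.25) and 0.33 (0.21 to 0.45) and a log2 difference of 0.23 (SE 0.22, adjusted p = 0.623). Kcnj12, a relative that can join it in mixed channels, had 174, 263 and 334 reads (10.8, 13.1 and 21.2 CPM). Only shRNA B moved it beyond counting error, at a log2 ratio of 0.97 (0.70 to 1.24) against 0.27 (-0.01 to 0.56) with shRNA A, and over both libraries the log2 difference was 0.66 (SE 0.31, adjusted p = 0.215). Between the shRNA libraries Kcnj12 differed by -0.70 (A relative to B, -0.94 to -0.46), a comparison of single libraries with no replicate check. The remaining members were rare. Kcnj16 had 22, 11 and 16 reads, Kcnj8, a pore of channels closed by ATP, had 7, 4 and 2, and Kcnj15 had 0, 10 and 0.

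Voltage-gated potassium channels, which end the action potential, had 10 tested genes. EdgeR called 0 of them, beside 9.82% of all tested genes, and this is not read as a result about the type. Kcnq1, with 4, 5 and 3 reads, was not tested. Over the tested voltage-gated genes edgeR gave 1 unadjusted p under 0.05, that of Kcnf1, where 21.7% of all tested genes had one. Kcnf1, a silent subunit that modifies other pore subunits, had 48, 135 and 92 reads, with log2 ratios of 1.17 (0.68 to 1.67) and 0.97 (0.45 to 1.501) and an adjusted p of 0.109. Kcnc2, a fast-gating channel known from neurons, had 24, 60 and 55 reads, with ratios of 0.997 (0.29 to 1.74) and 1.22 (0.51 to 1.98). Both stood above the control with both shRNAs. Its relative Kcnc1 had 37, 40 and 32 reads (log2 difference -0.20, SE 0.56).

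Kcnh1, an ether-a-go-go channel known from fusing myoblasts, had 63, 114 and 74 reads (log2 difference 0.40, SE 0.40). Kcnh2, which repolarises the heart, had 51, 127 and 39 reads and differed between the hairpins. It was above the control with shRNA A (log2 ratio 0.99, 0.51 to 1.49), and with shRNA B the interval included no change (-0.36, -0.9999 to 0.27). Kcnd1, a channel of transient currents, had 9, 33 and 16 reads. Kcna7, a channel gene of skeletal muscle, had 18, 9 and 10 reads (log2 difference -1.05, SE 0.89).

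Of the calcium-activated potassium channels 3 were tested, and edgeR called 0 (1 at an unadjusted p under 0.05). These stand beside 9.82% and 21.7% of all tested genes, and so few genes give no result about the type. Kcnn4, of intermediate conductance and known from dividing myoblasts and blood cells, had 178, 333 and 261 reads, or 11.1, 16.6 and 16.6 CPM. Its log2 ratio was 0.58 with each shRNA (0.31 to 0.85 and 0.30 to 0.86), and the log2 difference of 0.58 (SE 0.28) had an adjusted p of 0.229. Kcnn3, a small-conductance channel known from immature and denervated muscle, stayed at 6.29, 6.31 and 6.47 CPM (101, 127 and 102 reads). Its log2 difference was 0.02 (SE 0.36). Kcnn1, of the same type, had 142, 174 and 103 reads (-0.22, SE 0.34). Kcnma1, the large-conductance channel, had 10, 11 and 1 reads and was not tested, nor was Kcnu1, a relative known from sperm (5, 5 and 4 reads).

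Of the auxiliary potassium channel subunits 4 were tested, and edgeR called 0 (1 at an unadjusted p under 0.05). Beside 9.82% and 21.7% of all tested genes, this too is not read as a result about the type. Kcnmb4, a beta subunit of the large-conductance channel, had 84, 223 and 141 reads and stood above the control with both shRNAs, at log2 ratios of 1.08 (0.72 to 1.46) and 0.77 (0.37 to 1.18). At a log2 difference of 0.94 (SE 0.35) the adjusted p was 0.0972. Exons of the antisense gene Kcnmb4os2 cover 49.3% of its exon length, and that gene was counted separately at 0, 7 and 9 reads. A further antisense gene, Kcnmb4os1, covers 26.0% of it and has no reads analysed here, so the value is uncertain. Kcnab3, a cytoplasmic beta subunit, had 67, 95 and 52 reads. Its relatives Kcnab1 (4, 8 and 20 reads) and Kcnab2 (7, 12 and 8 reads) were rare. Kcnmb2 had 13, 21 and 7 reads. Kcnip3, a calcium-binding subunit that also acts as a transcriptional repressor, had 9, 0 and 1 reads. With shRNA A it was at least 3.76-fold lower against the floor of 3 counts, and with shRNA B the log2 ratio was -3.14 with an interval from -8.60 to -0.29.

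The 2 hairpins differed by at least 2-fold, with an interval that excludes no change, in 6 channel genes. Kcnh2, Kcnk13, Scn3a, Kcnma1 and Kcnj15 were higher with shRNA A (10.4% of channel genes, background 2.4%), and Kcnab1 was higher with shRNA B (2.08%, background 2.32%). Kcnj15 is a member only through its reads with shRNA A, so its place in this count was fixed by the limit on reads. Of these only Kcnh2 had more than 100 reads in all, at a log2 ratio of 1.35 (A relative to B, 0.82 to 1.91). The 5 genes called in the main comparison kept their direction in both libraries, which is no separate check because they were called from these same libraries. Scn4a, Clcn3 and Kcnk5 were each nearer to the control in the shRNA B library than in the shRNA A library. Their log2 ratios of A relative to B were -0.36 (-0.50 to -0.22), -0.18 (-0.33 to -0.02) and -0.70 (-1.18 to -0.22). Tead4 was lower with shRNA B, at a ratio of 0.87 (0.61 to 1.14). With 1 library per hairpin, a relation of these differences to the level of Tead4 was not tested.

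Other genes that carry or support membrane currents were taken as lists, whose counts stand beside 5.34% of all tested genes that rose and 4.48% that fell. Of 12 tested calcium channel subunits, 2 fell, 1 rose and the median was -0.43 on the log2 scale. The pore of the voltage sensor of muscle, Cacna1s, fell by 0.74 (SE 0.23), close to the threshold (edgeR quasi-likelihood adjusted p = 0.0464). Its beta subunit Cacnb1 fell by 0.79 (SE 0.23), and Cacna2d2 rose from 4 reads to 38 and 56 (log2 difference 3.40, SE 0.84). Among 10 genes of the sodium-potassium pump, which restores the gradients that channels use, the subunit Atp1b1 (-1.08, SE 0.22) and the regulator Fxyd6 (-0.90, SE 0.28) fell and none rose. Fxyd6 was also close to the threshold (edgeR quasi-likelihood adjusted p = 0.0444).

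Of 19 tested genes for chloride channels and related proteins outside the Clcn family, the intracellular chloride channel protein Clic5 fell from 782 reads to 101 and 111 (-3.02, SE 0.25, edgeR adjusted p = 2.27e-08). Ttyh3, a putative chloride channel, rose (0.88, SE 0.28). Among 7 tested cotransporters and exchangers, the sodium-calcium exchanger Slc8a1 rose by 1.26 (SE 0.27). Of 20 tested partners and anchors of channels, Ank2, an adaptor that anchors channels and transporters, fell by 1.27 (SE 0.26), as did the sodium channel modulator Fgf13 (-0.93, SE 0.26). Lrrc26, an auxiliary subunit of the large-conductance potassium channel, rose from 11 reads to 48 and 71 (2.31, SE 0.65). By edgeR's quasi-likelihood test none of 11 tested cation channels of other families was called (0 with an unadjusted p under 0.05), nor were the receptor subunits Abcc8 and Abcc9 of channels closed by ATP (adjusted p of 0.0939 and 0.709). The medians of these lists ran from -0.50 (sodium-potassium pump) to 0.22 (cotransporters), beside 0.02 for all tested genes.

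TEAD factors bind the MCAT element, whose core is CATTCC. The 250 bases before the transcription start are printed for the 3 channel genes that fell, from RefSeq (GRCm38.p6), because they show where these letters occur in genes that went down with Tead4. They are given 5′ to 3′ on the gene's strand, with any match to CATTCC or its reverse complement in capitals. The windows are chr11:106349391-106349640 for Scn4a, chr14:20181783-20182032 for Kcnk5 and chr8:60983312-60983561 for 1 of the 2 starts of Clcn3, all on the minus strand.
Scn4a: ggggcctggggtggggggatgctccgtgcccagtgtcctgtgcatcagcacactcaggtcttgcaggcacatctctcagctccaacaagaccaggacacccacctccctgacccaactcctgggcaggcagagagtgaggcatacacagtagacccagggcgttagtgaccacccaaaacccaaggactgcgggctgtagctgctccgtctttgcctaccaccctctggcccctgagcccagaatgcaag
Kcnk5: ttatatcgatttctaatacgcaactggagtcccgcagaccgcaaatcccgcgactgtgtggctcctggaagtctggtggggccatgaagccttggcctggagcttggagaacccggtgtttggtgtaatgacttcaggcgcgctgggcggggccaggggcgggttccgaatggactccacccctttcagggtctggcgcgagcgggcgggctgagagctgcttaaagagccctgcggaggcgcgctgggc
Clcn3: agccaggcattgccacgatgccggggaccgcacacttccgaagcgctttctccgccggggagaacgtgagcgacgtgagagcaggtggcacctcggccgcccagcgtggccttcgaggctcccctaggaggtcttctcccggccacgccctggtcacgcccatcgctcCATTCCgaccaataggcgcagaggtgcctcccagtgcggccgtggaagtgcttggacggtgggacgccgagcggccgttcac
Scn4a and Kcnk5 held no match in this window, and neither did the other start of Clcn3. The start of Clcn3 shown held 1 match, 82 bases before the start. RefSeq windows were matched for 35 of the 48 channel genes, in 56 windows. Of these windows 9 held a match (16.1%), where 12.6% of all 32851 windows of the same length did. Counted by gene, 9 of 35 held a match in at least 1 window (25.7%), where 14.4% of all 27025 genes did, a description with no test. A gene with more windows has more places for a match, and channel genes had more windows per gene than all genes did. The matches lay in Clcn2, Clcn3, Kcnk12, Kcnk13, Kcnk2, Kcnn4, Scn10a, Scn2a1 and Scn7a, of which only Clcn3 passed the test. A match is a description of the sequence and shows no binding.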

How the data were processed

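For each library the table deposited by the authors holds raw counts of reads for Ensembl genes. Beside them stands the authors' normalized score, the raw count times 1 factor for that library, rounded (0 values differed). DESeq, the build mm9, Cufflinks 0.8.2 and TopHat 1.0.12 are listed in the submitters' processing notes. How reads were counted is not given in the sources used here. Raw counts were used. Genes passing filterByExpr (14478), which needs enough reads in only 1 library, were scaled by TMM and tested in R 4.3.3 with edgeR 4.0.16 (quasi-likelihood, Benjamini-Hochberg over all tested genes, threshold 0.05): 2 Tead4 shRNA libraries against 1 control, which leaves 1 residual degree of freedom and assumes that the control varies like them. The biological coefficient of variation was 16.4%, which includes any difference between the 2 hairpins. SE is the size of the log2 difference over the root of its F statistic, and CPM uses the TMM-scaled library size. Ratios of single libraries carry 95% exact (Clopper-Pearson) counting intervals. Levels per length used merged exons of GENCODE M21 (GRCm38), which is not the authors' build, so no coordinates were taken from it. Overlapping genes came from the same list: 12 channel genes share exonic bases with a gene on the other strand. The edgeR script was tested on simulated data.

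Channel genes and the other lists were chosen with earlier results of these data known. Named genes were those that passed the test, those at least 2-fold changed in both libraries, those with a known muscle role, those with opposite ratios and the 10 with the most reads; some of these are not reported here. Related lists are shown by their called genes, at most 4 each; other names in those lists were chosen after their values were seen. Alternatives were other scalings (RLE, upper-quartile, total counts, the deposited factors), other filters, DESeq2 1.42.0, limma-voom (limma 3.58.1), the newer quasi-likelihood method, a pooled dispersion, another fold limit and each Tead4 shRNA library alone.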

Additional observations from a re-analysis of the deposited data

How the results depend on the processing

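The calls of Scn4a, Clcn3 and Kcnk5 held under 3 other scalings, 2 other filters, DESeq2, limma-voom and the newer quasi-likelihood method. DESeq2 left 1 channel gene higher and 3 lower. With the dispersion over all 3 libraries as 1 group, which counts any difference between the groups as scatter, 0 were higher and 0 lower. How much of this loss of calls came from that choice was not tested. With no filter on low counts 3 were higher and 4 lower. No value of the 5 called genes changed sign. Upper-quartile scaling and total counts each gave 5 channel genes at least 2-fold higher in both libraries instead of 3, adding Kcnf1 and Kcnc2, and a limit of 1.5-fold gave 6. Shares of all genes under DESeq2, the pooled dispersion, no filter, these scalings and this limit are not given. The counts in these settings are therefore not read as results about the channel genes. Leaving out 1 Tead4 shRNA library, which leaves a value with no test, gave 6 to 7 higher and 7 to 8 lower. These are the counts of the single libraries given above with their backgrounds. They cannot be lower than counts that need both libraries, so the rise shows nothing about the processing. The median log2 difference of tested channel genes was 0.0585 to 0.154 with 1 Tead4 shRNA library left out. In the main fit with both libraries that median was -0.01, and it was above 0 with total counts (0.03) and upper-quartile scaling (0.03). The median over all tested genes moved up as well, from 0.02 to 0.063 with total counts and 0.057 with upper-quartile scaling. No paired analysis was possible because there is 1 control library, so the groups share fewer than 2 numbers.

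There is 1 control library, so a culture that differs for another reason would move both ratios. Depth limits many of these genes: 22 channel genes had under 100 reads and 10 were too rare to test. For 14 of the 48 both intervals included no change, where they did for 4159 of all 15500 genes with 10 or more reads.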

Other observations

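Beneath the limit of 10 reads, 35 channel genes were listed, 10 of them at 0 reads in every library. Several have a known place in muscle. Kcnj11, the pore of the muscle channel closed by ATP, had 6, 0 and 3 reads (control, shRNA A, shRNA B), and Kcne4, an accessory subunit, had 5, 2 and 2. Kcna4, a channel of transient currents, had 6 reads, all with shRNA B. The shaker channels Kcna1 and Kcna5 had 1 read each, both with shRNA A. No ratio or test is given for genes with so few reads, and no difference is read from them.

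Per kilobase of exon, 10 channel genes reached 5 CPM per kb or more in the control and 12 in each Tead4 shRNA library.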
